A study of Mus musculus with 14 samples.

Results

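Intra-aortic haematopoietic clusters (IAHCs) are attached to the ventral and the dorsal wall of the mouse aorta. The comparison described here set ventral against dorsal whole IAHCs (wIAHCs) of E11 embryos. Each wIAHC was aspirated on its own from a slice of the embryo trunk and sequenced as 1 library, with the side of the aorta recorded at picking. The embryos were wild-type C57BL/6 without any treatment other than staining of the aorta for c-kit, the receptor tyrosine kinase used to see the clusters. Members were the E11 libraries that held at least 5000 transcripts outside the spike-in controls, which left 17 of 34 ventral and 12 of 21 dorsal libraries, or 29 of the 109 whole-cluster libraries of both stages. The column names divide them into a set iAHC, with 4 ventral and 6 dorsal libraries, and a set iAHC2, with 13 ventral and 6 dorsal libraries. What distinguished both sets was not given, so the set was a covariate throughout. E10 wIAHCs of the same strain and genotype, 21 ventral and 7 dorsal, served for the comparison of stages.

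The embryo from which a cluster came was not given. Clusters of 1 side may therefore share an embryo, and the p-values measure the spread between clusters. The wider test in subsets of the libraries, described below, is an exception. Xist, the RNA that silences an X chromosome, and Y-linked genes were both seen in 2 ventral and 1 dorsal libraries, only Y-linked genes in 9 ventral and 4 dorsal libraries, only Xist in 3 ventral and 3 dorsal libraries, and neither in 3 ventral and 4 dorsal libraries. The libraries of each side thus came from embryos of both sexes, and sex was not part of the fit. A cluster holds many cells in 1 library, so that fewer cells of a type and less RNA per cell of that type cannot be told apart.

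Haematopoietic stem cells arise in the embryo when haemogenic endothelial cells of the aortic wall round up, lose endothelial and gain haematopoietic gene expression, and enter clusters that protrude into the vessel. Runx1 and Gfi1 are transcription factors that drive this endothelial-to-haematopoietic transition (EHT). Cdh5 (VE-cadherin) and Pecam1 (CD31) are junction proteins that endothelial cells and young cluster cells share. Clusters on opposite walls face different surrounding tissue, which poses the question of whether they hold the same cells.

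The libraries carried the defining transcripts of clusters on both sides. Kit was detected in 14 of 17 ventral and 11 of 12 dorsal libraries, with a median level of 2.91 and 3.68 per 10000 transcripts, respectively. Runx1 was detected in 15 ventral and 9 dorsal libraries, Gpr56, a receptor of developing haematopoietic stem cells, in 16 and 11, Cd34 in 14 and 11, and Gfi1 in 9 and 8. Cdh5 was present in 15 ventral and 11 dorsal libraries. Among the defining markers of other cells, Csf1r, the macrophage receptor, was detected in 3 ventral libraries and at 0 in all 12 dorsal ones, and Gata1, the erythroid transcription factor, in 1 library of each side. Mpo, of granulocyte progenitors, had a transcript in 8 ventral and 3 dorsal libraries. Col1a1, the fibrillar collagen of mesenchyme, was seen in 7 of 17 ventral libraries, at up to 1.198 per 10000, and in 7 of 12 dorsal libraries, at up to 4.39.

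Depth differed with the side. The ventral libraries held 7635 to 54975 transcripts, with a median of 12838, and the dorsal libraries 5099 to 25968, with a median of 8244. Within sets the ventral libraries were deeper by 1.02 on the log2 scale, given without a test since the minimum had chosen the libraries by this value. Over all E11 libraries the difference was -0.13 (permutation p = 0.87), and the minimum was passed by 17 of 34 ventral and 12 of 21 dorsal libraries (Fisher's exact test, two-sided p = 0.78). The libraries nearest the minimum were dorsal library 16 of set iAHC2, kept with 5099 transcripts, and dorsal library 12 of set iAHC, left out with 4892. Haemoglobin transcripts made up 0.0073% to 27.5% of a library and exceeded 10% in 3 libraries of set iAHC2, namely ventral library 7 (13.2%), ventral library 9 (23.6%) and dorsal library 16 (27.5%). Spike-ins were near 0 in set iAHC2 and took 1.18% to 37.3% in set iAHC.

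**Figure D1:**
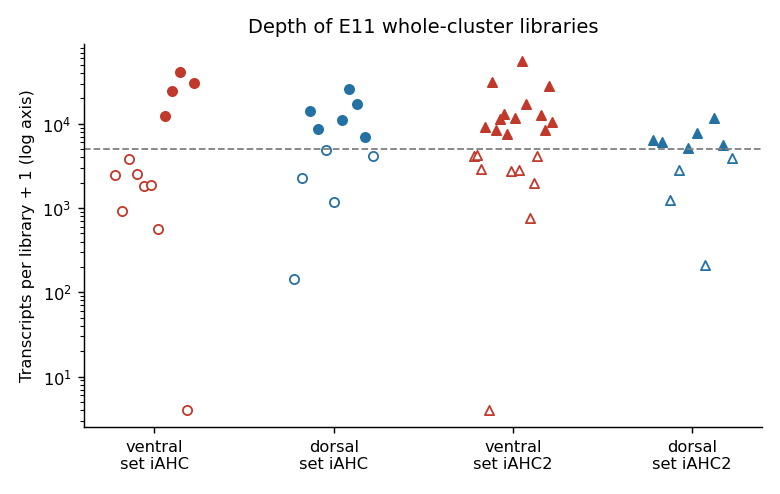
Transcripts per library outside the spike-ins, plus 1 (log axis), for all 55 E11 wIAHC libraries by collection set and side, with filled symbols for kept and open symbols for left-out libraries and a dashed line at the minimum of 5000. Kept ventral libraries ranged from 7635 to 54975 transcripts and kept dorsal libraries from 5099 to 25968.

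At matched depth, the sides held similar numbers of genes. After each library was thinned to 5000 transcripts, 2351 ± 236 genes (SD, n = 17) were detected in ventral and 2381 ± 247 genes (SD, n = 12) in dorsal libraries (permutation test within sets, two-sided p = 0.96). The difference was -83.3 in set iAHC and 55.9 in set iAHC2, or 4.57 combined over the sets, although the pooled ventral mean is the lower one. Without thinning the ventral libraries held 1537 more genes, beside their greater depth.

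Between sides, no gene passed among those with many transcripts. Of 167 genes with enough transcripts in these shallow libraries, 0 were called (0% of those tested; edgeR's quasi-likelihood test with the set as covariate, Benjamini-Hochberg adjusted p under 0.05), and the smallest adjusted p was 0.527. DESeq2 and limma also called 0. At an unadjusted p under 0.05 there were 13 genes by edgeR, 11 by DESeq2 and 14 by limma. The 13 comprised 8 genes with a lower ventral level (4.79% of those tested) and 5 with a higher one (2.99%). A wider test of 4580 genes, each with a transcript in at least 12 libraries and scaled by the factors of the first test, also called 0 (0%), with a smallest adjusted p of 0.077, shared by H19, Igf2, Rn45s and 1810013L24Rik. Scaled by factors taken from the 4580 genes themselves it called 8 genes, and without any filter on low counts 12 of 12265 were called, all with a higher ventral level. Its calls also depended on the libraries. Without the 3 libraries over 10% haemoglobin it called 8 genes (edgeR, adjusted p from 1.4e-05 for H19 to 0.027 for Nmrk1). H19, Igf2, Rn45s and 1810013L24Rik were lower in ventral libraries and Nmrk1, a kinase gene of NAD synthesis, was higher. The other 3 were the embryonic globin genes Hbb-y, Hbb-bh1 and Hba-x, and these were not called once dorsal library 24 of set iAHC2, with 5.39% haemoglobin, was left out too. Then 7 genes were called, namely the 5 above, Ramp2, an endothelial gene described further on, and Gm20594, both lower. In set iAHC alone the wider test called 6, with Rn45s, H19, Mest and Gm20594 lower and Nmrk1 and Zfp316 higher. Rn45s was at an adjusted p of 1.9e-107 there (edgeR), beside 0.0074 in the test of fewer genes. A p of that size cannot measure the spread among 4 ventral and 6 dorsal libraries. Calls of the wider test in subsets of the libraries are therefore given as a description only. Nmrk1 had its highest level, 28.4, in ventral library 17 of set iAHC, beside medians of 1.63 in ventral and 0.742 in dorsal libraries. Its log2 ratio was 3.07 in set iAHC and 0.49 in set iAHC2, where it was not called. In set iAHC2 alone the wider test called the 3 globin genes as lower, and without its dorsal library 16 as higher, beside Fth1 (higher) and Igf2 and H19 (lower), whereas the test of fewer genes called 0 in that set. With all libraries it gave 225 genes at an unadjusted p under 0.05 (4.91%), 170 of them with a lower ventral level (3.71% of those tested) and 55 with a higher one. The direction of these counts came with the scaling: with factors from the 4580 genes there were 488, of which 31 had a lower ventral level (0.677%) and 457 a higher one (9.98%). With the log2 library total added to the model, 0 of 270 genes were called by edgeR and 5 were at an unadjusted p under 0.05, and the part of depth in the genes of the wider test was not tested. The genes described next are those of lowest p and are named as not passing.

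Igf2 and H19 had the lowest p of the 167 genes. Igf2 encodes a fetal growth factor and is expressed from the paternal chromosome, and H19 encodes a non-coding RNA expressed from the maternal one. They are neighbours on mouse chromosome 7 (GRCm38), with Igf2 at 142650768 to 142666816 and H19 at 142575530 to 142578146, and share an imprinting control region and enhancers. RefSeq gives Igf2 4 start sites, each with a promoter window of 300 bases on the minus strand in GRCm38.p6. Windows with a match to GGGCGG, the GC box bound by Sp1-type factors, on either strand are shown to place the gene, with the matches in capitals.
Igf2 promoter chr7:142657447-142657746 (minus strand): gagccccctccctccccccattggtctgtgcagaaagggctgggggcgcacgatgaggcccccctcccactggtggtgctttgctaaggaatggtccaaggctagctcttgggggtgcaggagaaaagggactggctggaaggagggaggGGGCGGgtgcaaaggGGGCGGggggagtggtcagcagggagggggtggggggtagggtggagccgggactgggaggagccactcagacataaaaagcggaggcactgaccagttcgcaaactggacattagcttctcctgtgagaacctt
Igf2 promoter chr7:142658755-142659054 (minus strand): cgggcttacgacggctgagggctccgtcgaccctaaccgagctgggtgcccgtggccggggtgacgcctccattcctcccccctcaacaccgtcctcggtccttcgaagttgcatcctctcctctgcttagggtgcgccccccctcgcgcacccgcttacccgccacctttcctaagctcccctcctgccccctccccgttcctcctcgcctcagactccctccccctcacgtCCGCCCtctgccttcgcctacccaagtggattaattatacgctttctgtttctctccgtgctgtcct
The first window held 2 matches and the second 1, the other two windows held none, and none of the 4 held TATAAA. Of 32851 RefSeq promoter windows of the same length, 35.7% held GGGCGG and 13.6% TATAAA. A match is a run of letters and not a measured site, and the tags of these libraries come from transcript ends, so they did not tell the start sites apart.

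The level of Igf2 was 10.8 to 53.2 per 10000 transcripts in ventral libraries, with a median of 29.8, and 5.92 to 82.5 in dorsal libraries, with a median of 48.2. The ranges overlapped, although 10 of 12 dorsal libraries lay above the ventral median and 4 above the highest ventral library. The dorsal library at 5.92, below every ventral one, was library 16 of set iAHC2, which also had the most haemoglobin. In set iAHC the ventral libraries spanned 29.4 to 37.5 and the dorsal ones 35.9 to 57.0. The log2 ratio of ventral over dorsal was -0.75 ± 0.23 (SE; edgeR's quasi-likelihood test, unadjusted p = 0.0032, Benjamini-Hochberg adjusted p = 0.53). It was -0.67 in set iAHC and -0.85 in set iAHC2. With the log2 library total in the model it was -0.53, and with the scaling on all 4580 genes -0.26 (edgeR, unadjusted p = 0.21). Without the 3 libraries over 10% haemoglobin Igf2 passed, with a log2 ratio of -0.81 (edgeR, adjusted p = 0.043), and so it did without dorsal library 16 of set iAHC2 alone, at -0.87 (adjusted p = 0.038).

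H19 was at 13.3 to 57.5 per 10000 in ventral libraries, with a median of 42.5, and at 20.004 to 143 in dorsal libraries, with a median of 53.6. The groups overlapped, and 5 of 12 dorsal libraries exceeded the highest ventral one. The log2 ratio of H19 was -0.81 ± 0.28 (SE; edgeR, unadjusted p = 0.0076, adjusted p = 0.57), -0.51 with the log2 library total in the model and -0.33 with the scaling on all 4580 genes (unadjusted p = 0.11). Across the 19 libraries of set iAHC2 the levels of H19 and Igf2 went together (Pearson's r = 0.82, permutation p = 2e-05; Spearman's rho = 0.66, permutation p = 0.0028; r = 0.77 without the 2 libraries of most extreme level). In the 10 libraries of set iAHC the relation was not seen (r = 0.26, permutation p = 0.48; rho = 0.24, permutation p = 0.51), and r was 0.73 without the 2 extreme libraries. These 2 relations were the only ones computed across libraries. All libraries share the scaling per 10000 transcripts.

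The other genes of low p with a lower ventral level were nuclear and ribosomal RNAs and ribosomal protein genes. Malat1, a nuclear non-coding RNA, was at 0.878 to 22.5 per 10000 in ventral (median 5.85) and at 3.63 to 41.2 in dorsal libraries (median 8.81), a log2 ratio of -0.97 ± 0.41 (SE; edgeR, unadjusted p = 0.023, adjusted p = 0.57), or -0.43 (unadjusted p = 0.14) with the scaling on all 4580 genes. Rn45s, the precursor of ribosomal RNA, was at 10.8 to 237 in ventral (median 38.8) and 17.2 to 299.5 in dorsal libraries (median 78.0). Its log2 ratio was -1.47 ± 0.65 (SE; edgeR, unadjusted p = 0.030, adjusted p = 0.57), or -0.85 (unadjusted p = 0.0031) with the scaling on all 4580 genes. Rn45s was split by set. In set iAHC the 4 ventral libraries lay at 11.9 to 14.3 and the 6 dorsal ones at 17.2 to 299.5 without overlap, and it was the 1 gene called in that set alone (log2 ratio -3.70, edgeR adjusted p = 0.0074). In set iAHC2 the medians were 43.6 and 44.1, and the log2 ratio was -0.34 (edgeR, unadjusted p = 0.57). The difference between the sets was not tested. Ribosomal RNA lacks the poly(A) tail from which these libraries were primed.

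The ribosomal protein genes and their kin of this direction were Fau, Rpl13a, Rpl31, Rpl31-ps12, Rps27a, Rpl18, Rps10 and Rpsa, at log2 ratios of -0.35 for Fau and Rpl31, -0.30 for Rpl31-ps12, -0.26 for Rpsa, -0.24 for Rpl13a, -0.23 for Rps27a, -0.20 for Rpl18 and -0.19 for Rps10. Rpl31-ps12 is a pseudogene copy of Rpl31, and reads cannot be assigned between the copies with certainty. All 8 turned above 0 when the scaling was taken from all 4580 genes.

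The genes of low p with a higher ventral level were led by Mif and Gnb2l1. Mif, a cytokine, was at 1.93 to 22.1 per 10000 in ventral (median 9.11) and 1.569 to 9.12 in dorsal libraries (median 4.55). Of the 17 ventral libraries 8 exceeded every dorsal one, and 1 of 12 dorsal libraries lay above the ventral median. The log2 ratio of Mif was 0.66 ± 0.28 (SE; edgeR, unadjusted p = 0.027, adjusted p = 0.57). Hmgn2, a nucleosome-binding protein, was at 4.82 to 22.2 in ventral (median 12.8) and 1.569 to 15.6 in dorsal libraries (median 9.06). Its groups overlapped, and the log2 ratio was 0.43 ± 0.20 (SE; edgeR, unadjusted p = 0.037, adjusted p = 0.57). Gnb2l1 (Rack1), a scaffold protein on the small ribosomal subunit, was at 22.8 to 37.4 in ventral (median 28.4) and 14.3 to 30.3 in dorsal libraries (median 21.98). Of 12 dorsal libraries 7 lay below every ventral one, yet the log2 ratio after scaling was 0.22 ± 0.09 (SE; edgeR, unadjusted p = 0.030, adjusted p = 0.57). With the scaling on all 4580 genes Mif was at 1.14, Hmgn2 at 0.90 and Gnb2l1 at 0.72 (edgeR, adjusted p = 0.11, 0.13 and 0.18).

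**Figure D2:**
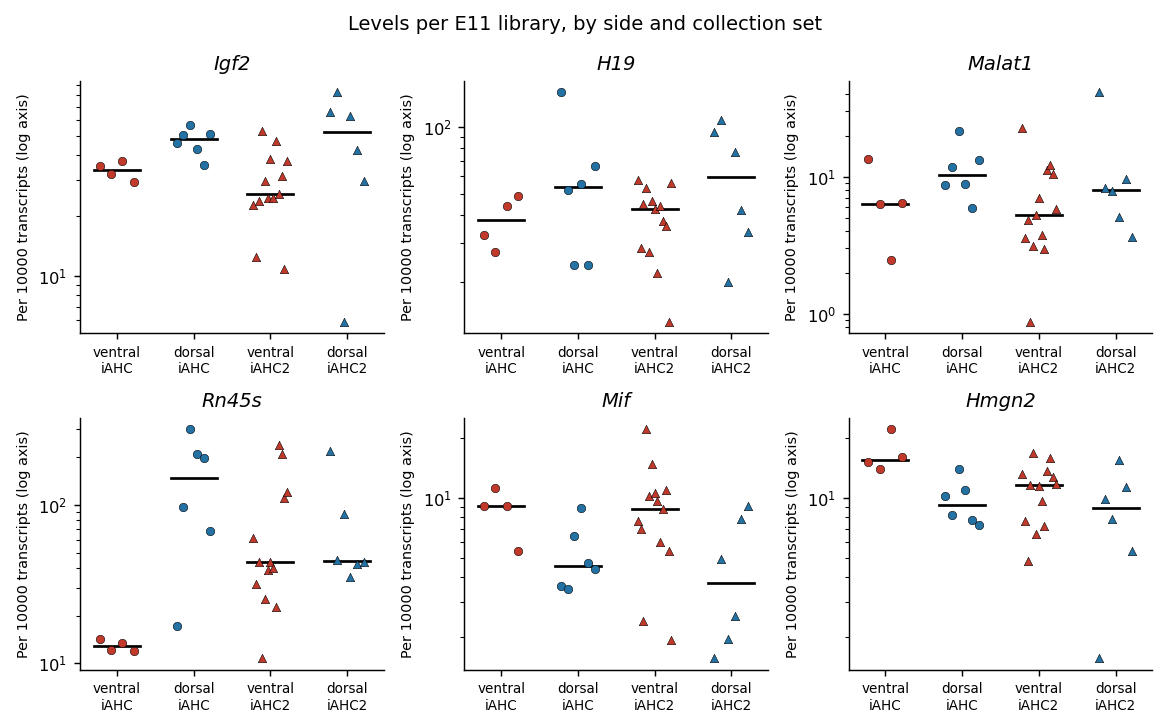
Level per 10000 transcripts (log axis) of Igf2, H19, Malat1, Rn45s, Mif and Hmgn2 in each kept E11 library, by collection set and side, with a bar at each median. The sides overlap for each gene except Rn45s in set iAHC, where the ventral libraries lie at 11.9 to 14.3 and the dorsal ones at 17.2 and above.

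The remaining genes named by the same rule were 5 genes of ribosomal proteins (Rps13, Rpl21, Rpl29, Rpl7 and Rpl36a, at log2 ratios of 0.20 to 0.37), the elongation factor gene Eef1b2 (0.25), the microtubule genes Stmn1 (0.45) and Tuba1b (0.30), and Sumo2 (0.44), which encodes a protein modifier. In set iAHC the ventral and dorsal libraries did not overlap for 10 of the 167 genes (5.99%). Among the 24 named genes these were Rn45s, Gnb2l1 and Tuba1b. For Tuba1b the ventral libraries of that set lay at 17.3 to 23.1 and the dorsal ones at 5.86 to 17.2. No gene was without overlap in set iAHC2 (0%) or over both sets (0%).

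Levels in single E11 cells, which were not used to choose these genes, were set beside them as a description. ICR embryos carrying Gfi1 tomato and Gfi1b GFP reporter alleles had provided the endothelial and EHT cells, whereas the pre-HSCs and yolk sac cells were wild-type C57BL/6, so that strain and cell type cannot be told apart in these levels. Igf2 was at 104 per 10000 in endothelial cells (haemogenic and non-haemogenic), 42.9 in pre-HSCs, the precursors of haematopoietic stem cells, and 5.57 in yolk sac cells, and H19 was at 134, 55.6 and 7.30. Mif had the opposite order, at 2.95, 8.85 and 18.2. All 12 named genes with a higher ventral level were lower in endothelial cells than in pre-HSCs, as were 135 of the 166 tested genes with a single-cell level. Of the 11 matched genes with a lower ventral level, 4 were higher in endothelial cells, against 31 of 166 of all tested genes (18.7%).

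Endothelial genes were measured as a group from a list of 28 genes. All 28 were detected, and 17 had transcripts in enough libraries to enter the wider test. Each of the 17 was higher in single endothelial cells than in pre-HSCs. None of the 17 passed the adjusted test with all libraries. At an unadjusted p under 0.05, 7 of 17 (41.2%) had a lower ventral level, against 3.71% of all genes, and 0 had a higher one. The median log2 ratio of the 17 genes was -0.91, against -0.13 over the 4580 genes. The fitted ratio was below 0 for 16 of 17 genes, and for 59.0% of all genes. The exception was Mecom, a transcription factor of stem cells and arterial endothelium (log2 ratio 0.12).

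Ramp2, which with its receptor partner binds the vascular peptide adrenomedullin, had the lowest p of the list. It was detected in 12 of 17 ventral libraries, at up to 6.84 per 10000 with a median of 0.732, and in 9 of 12 dorsal libraries, at up to 10.3 with a median of 2.08. The sides overlapped, and the log2 ratio was -1.70 ± 0.48 (SE; edgeR, unadjusted p = 5.5e-04, adjusted p = 0.31). Without the 4 libraries over 5% haemoglobin it was -1.90 and passed (edgeR, adjusted p = 0.043). That call is from a subset of the libraries, with the limit given above. Eng (endoglin), a co-receptor for BMP9 in endothelium, had a median of 0.812 in ventral and 1.89 in dorsal libraries and a log2 ratio of -1.36 ± 0.49 (SE; edgeR, unadjusted p = 0.0067, adjusted p = 0.70). Cldn5, a tight junction protein, was detected in 8 of 17 ventral and 9 of 12 dorsal libraries, with a log2 ratio of -1.38. Mmrn2, of the vascular matrix, and Nrp1, a co-receptor for VEGF, were at -1.28 and -1.27. Vwf, the clotting factor stored in endothelial cells, was at -1.03 and Egfl7, a secreted endothelial factor, at -0.91. In set iAHC Vwf was at -2.12 and Mmrn2 at -2.10, against -0.09 and -0.31 in set iAHC2, whereas Nrp1 was at -1.18 and -1.31. Pecam1 was at -0.97 (edgeR, unadjusted p = 0.055) and Cdh5 at -0.54 (unadjusted p = 0.19). The 11 genes below the filter included Kdr, detected in 9 of the 29 libraries, Emcn and Efnb2, in 11 each, and Sox17, in 7.

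**Figure D3:**
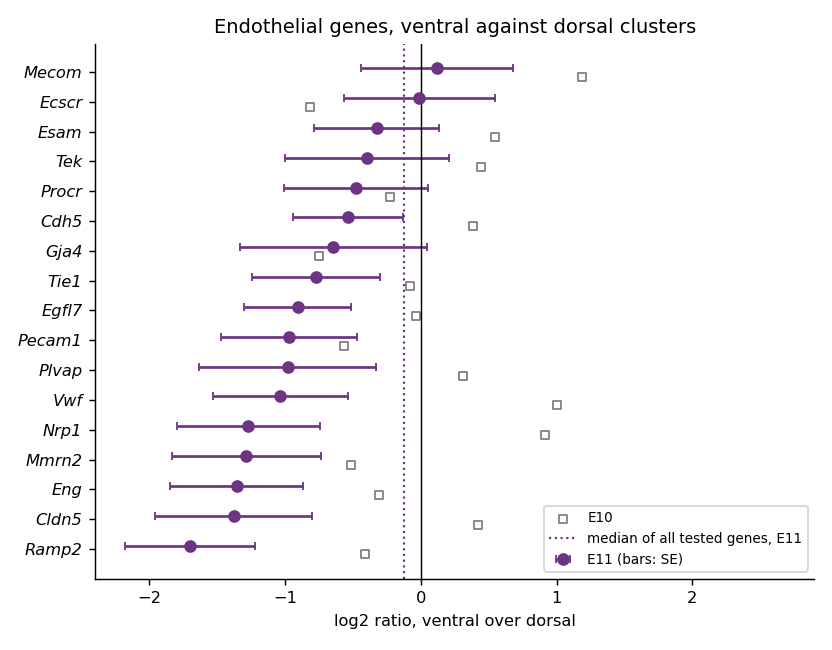
Log2 ratio of ventral over dorsal wIAHCs for the 17 endothelial genes tested, with circles and bars for E11 (SE), open squares for E10 and a dotted line at the median of all genes at E11 (-0.13). At E11, 16 of 17 circles lie below 0, from -1.70 for Ramp2 to 0.12 for Mecom, and none passed the adjusted test.

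The summed level of the 28 endothelial genes was 3.85 to 39.8 per 10000 in ventral libraries, with a median of 22.4, and 3.93 to 59.9 in dorsal libraries, with a median of 35.2. In set iAHC the sides did not overlap, at 13.9 to 24.9 in ventral and 27.2 to 55.3 in dorsal libraries. In set iAHC2 they did, at 3.85 to 39.8 and 3.93 to 59.9. Markers of tissue around the aorta were also at a lower level in the ventral libraries of set iAHC. The sum of 9 sub-aortic and sympathetic genes, of which only Cdkn1c was tested (log2 ratio -0.51, edgeR unadjusted p = 0.12), was at 1.97 to 4.65 in its ventral and 4.70 to 10.3 in its dorsal libraries. The mesenchyme sum had a median of 3.89 in ventral and 11.2 in dorsal libraries of that set, with overlap (1.315 to 11.4 and 1.93 to 32.2), and 5 of 5 tested mesenchyme genes had a ratio below 0 there, beside 64.7% of all genes. In set iAHC2 the sub-aortic median was 6.31 in ventral and 6.11 in dorsal libraries. The mesenchyme median of that set was 9.57 in ventral and 12.9 in dorsal libraries, with overlap. Their part in the endothelial result was not tested. The median log2 ratio of the list was -1.17 in set iAHC, where 16 of 17 genes were below 0 (64.7% of all genes), and -0.37 in set iAHC2, where 12 of 17 were (47.5% of all genes). With each library left out in turn the median lay between -1.10 and -0.61 and the number of genes at an unadjusted p under 0.05 between 4 and 8, with 4 without ventral library 17 of set iAHC. Scaling on all 4580 genes put the median of all genes at 0.36 and that of the endothelial list at -0.40. On that scale 12 of the 17 genes were below 0, Ramp2 was the only member at an unadjusted p under 0.05 (log2 ratio -1.23, edgeR's quasi-likelihood test across 4580 genes), which is 1 of 17 beside 0.677% of all genes. The difference of the list from all genes was -0.76, beside -0.78 with the first scaling. A change of scaling moves all genes by nearly the same amount, so these 2 differences had to be close and do not test the scaling.

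**Figure D4:**
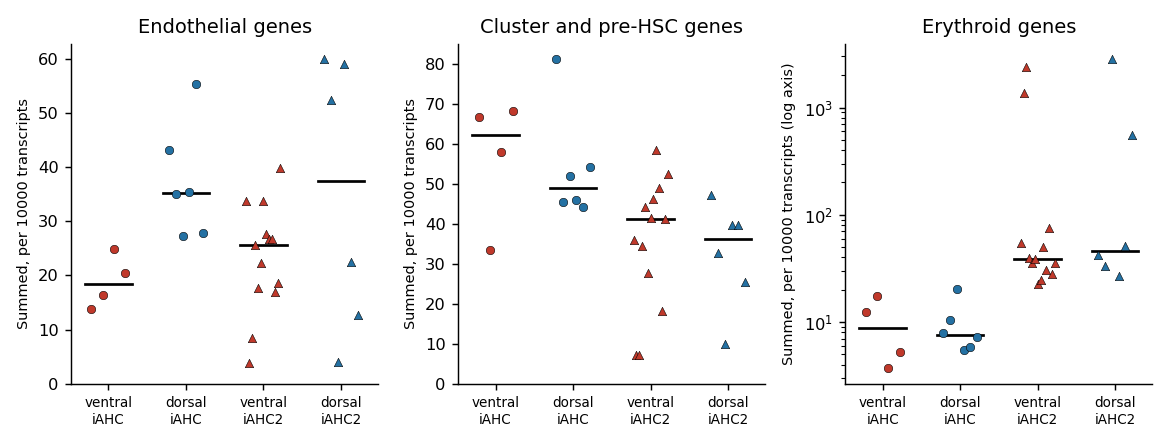
Summed level per 10000 transcripts of the endothelial and the cluster identity gene lists (linear axes) and of the erythroid list (log axis) in each kept E11 library, by collection set and side, with a bar at each median. The endothelial sums of set iAHC do not overlap (13.9 to 24.9 ventral, 27.2 to 55.3 dorsal), whereas those of set iAHC2 and the cluster sums of both sets do.

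Each library was also described as a mixture of the single-cell profiles of endothelial cells, EHT cells, pre-HSCs and yolk sac cells. The estimated endothelial share was 3.62% ± 7.38 (SD, n = 17) in ventral and 8.32% ± 8.30 (SD, n = 12) in dorsal libraries (permutation test within sets, difference -5.72 percentage points, two-sided p = 0.062, adjusted over the 4 shares p = 0.25). It was 0 in 10 of 17 ventral and 3 of 12 dorsal libraries. The share of pre-HSCs was 50.4% ± 21.5 (SD, n = 17) and 51.98% ± 19.03 (SD, n = 12), and that of EHT cells 22.1% ± 13.5 and 22.1% ± 13.6. The 3 libraries over 10% haemoglobin were fitted at 100% yolk sac cells with a correlation of 0.061 to 0.10 between fit and data. Without them the endothelial difference was -6.44 percentage points (permutation test, unadjusted p = 0.049, adjusted p = 0.20).

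Col4a1 and Col4a2 encode the collagen IV chains of basement membranes, had the lowest p of the matrix and adhesion list and are neighbours on chromosome 8 (11198423 to 11312889 and 11312805 to 11449287). Their annotated spans overlap only from 11312805 to 11312889, and only reads in that short stretch are uncertain. Col4a1 was at 0 to 3.27 per 10000 in ventral (median 1.72) and at 0 to 14.3 in dorsal libraries (median 4.50). In set iAHC every dorsal library (3.50 to 8.83) exceeded every ventral one (1.23 to 3.27). The log2 ratio was -1.54 ± 0.41 (SE; edgeR, unadjusted p = 2.5e-04, adjusted p = 0.22) for Col4a1 and -1.64 ± 0.54 (adjusted p = 0.48) for Col4a2, and -0.98 and -1.11 with the scaling on all 4580 genes. Both were higher in single endothelial cells (11.4 and 7.03 per 10000) than in pre-HSCs (2.72 and 1.79). Of the 10 tested genes of matrix and adhesion these 2 were at an unadjusted p under 0.05 and 0 had a higher ventral level at that p (1, Itga4, with the scaling on all 4580 genes, beside 9.98% of all genes). They made up 2 of 10 (20%), beside 3.71% of all genes, and the median of the list was -1.12 in set iAHC and -0.04 in set iAHC2. Fn1 (fibronectin) was at -0.28 ± 0.33 (SE; edgeR, unadjusted p = 0.40), and at 0.18 with the scaling on all 4580 genes. Tpm1, a tropomyosin outside the lists that had the sixth lowest p of the wider test, was at 0 to 5.38 in ventral (median 1.72) and 1.43 to 10.3 in dorsal libraries (median 4.15; log2 ratio -1.45, edgeR adjusted p = 0.22, and -0.92 with the scaling on all 4580 genes).

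Genes of cluster and pre-HSC identity had no member of low p with the first scaling. Of 23 such genes 19 were tested, 0 were at an unadjusted p under 0.05 in either direction, and the median log2 ratio was -0.04, or 0.41 with the scaling on all 4580 genes, where that of all genes was 0.36. The summed level was 7.07 to 68.1 per 10000 in ventral (median 41.6) and 9.83 to 81.3 in dorsal libraries (median 44.8). Gpr56 was at a log2 ratio of -0.04 ± 0.36 and Cd34 at 0.15 ± 0.37 (SE). Fli1 and Tal1, transcription factors of blood and endothelium, were at 0.73 ± 0.48 and -0.69 ± 0.46 (SE), neither at an unadjusted p under 0.05, but with the scaling on all 4580 genes 2 of the 19 were at that p with a higher ventral level, Neurl3 and Fli1 (1.204; edgeR, unadjusted p = 0.0089), beside 9.98% of all genes. Of the 7 tested genes of myeloid progenitors 0 were at an unadjusted p under 0.05, or 2 (Rac2 and Coro1a, both higher) with the scaling on all 4580 genes.

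Signalling genes were mostly too scarce to test. Of 30 BMP and TGF-beta genes 9 were tested, and Smad4, the shared mediator of both pathways, was the 1 at an unadjusted p under 0.05 (log2 ratio -1.17, edgeR adjusted p = 0.98). Of all 4580 genes 4.91% were at an unadjusted p under 0.05 in either direction, and 3.71% were so with a lower ventral level. Of 18 Notch genes 4 were tested, of 16 Wnt genes 3 and of 14 hedgehog genes 2, and 0 were at that p. Among 8 tested cytokine and growth factor genes Igf1r, the receptor through which Igf2 signals, was at -1.21 ± 0.45 (SE; edgeR, unadjusted p = 0.0090, adjusted p = 0.86). Cyp26b1, which degrades retinoic acid, was at -1.27, and Hoxa9, a HOX gene of blood stem cells, at 1.27 (both adjusted p = 0.98). Under the scaling on all 4580 genes Smad4 was at -0.69, Igf1r at -0.68 and Cyp26b1 at -0.80, none at an unadjusted p under 0.05 (edgeR, 0.22, 0.13 and 0.19), and Hoxa9 was at 1.71 (unadjusted p = 0.0037).

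Cell cycle genes were measured in lists for mitosis, replication and G1. Of 22 tested mitosis genes Aurka and Birc5, a mitotic kinase and a chromosome passenger protein, were at log2 ratios of 1.763 and 1.13 and the kinesin Kif11 at -0.96 (each at an unadjusted p under 0.05, edgeR adjusted p = 0.95), which makes 3 of 22 beside 4.91% of all genes. The median of the list was -0.06, or 0.43 with the scaling on all 4580 genes, where Kif11 was at -0.34 (unadjusted p = 0.39) and Aurka at 2.15, Birc5 at 1.603 and Ube2c, a ubiquitin-conjugating enzyme of mitosis, at 0.95 were each at an unadjusted p under 0.05. Of 17 tested replication genes 0 were at an unadjusted p under 0.05, and Ccnd2, a cyclin of the G1 phase, was at -0.87 (edgeR, adjusted p = 0.92). Of 26 respiratory chain genes, all tested, 0 were at that p. Scaled on all 4580 genes, 3 of 17 replication genes (Mcm6, Rrm1 and Rrm2) and 3 of 26 respiratory chain genes were at that p with a higher ventral level, beside 9.98% of all genes, and Ccnd2 was at -0.34 (unadjusted p = 0.35). Of 5 tested mesenchyme genes Col1a1 was at -1.95 ± 0.66 (SE; edgeR, unadjusted p = 0.0036, adjusted p = 0.50), at -1.47 (unadjusted p = 0.020) with the scaling on all 4580 genes, and at -4.65 in set iAHC against -0.63 in set iAHC2. The summed mesenchyme list was at 0 to 22.9 per 10000 in ventral and 1.93 to 32.2 in dorsal libraries.

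The 5 tested erythroid genes had a median log2 ratio of -0.85, which became 0.82 without dorsal library 16 of set iAHC2 and -1.26 without all 3 libraries over 10% haemoglobin. With the scaling on all 4580 genes it was -0.05. The globin genes on the list depended on single libraries, as given above: without the libraries over 5% haemoglobin Hbb-y was at 0.05 and Hbb-bh1 at -0.06. Zfpm1 (Fog1), the partner of GATA factors, was at -1.46 (edgeR, unadjusted p = 0.012, adjusted p = 0.92), or -0.92 (unadjusted p = 0.11) with the scaling on all 4580 genes. Of 7 tested stress genes Jun, an immediate early gene, was at 1.09 (edgeR, adjusted p = 0.98). Jun, Hspa8 and Hsp90aa1 were the 3 of 7 that with the scaling on all 4580 genes were at an unadjusted p under 0.05, all higher in ventral libraries. On that scale 9.98% of all genes were higher in ventral libraries at that p. The 12 genes called without any filter on low counts, all higher in ventral libraries, included the heat shock genes Hspa1b and Hspa1a and the immediate early gene Fos. Their log2 ratios were 4.549, 4.001 and 3.588 (edgeR, adjusted p = 1.7e-06, 3.5e-05 and 0.021), beside a median of all genes of 0.38 in that setting. None of these 3 was among the 8 genes called of the 4580 with their own scaling. How many libraries held them is not given here, so these calls may rest on few libraries. The summed stress list was highest in ventral library 17 of set iAHC, at 125, and reached 116 in dorsal libraries. The part of that library in these calls was not tested.

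**Figure D5:**
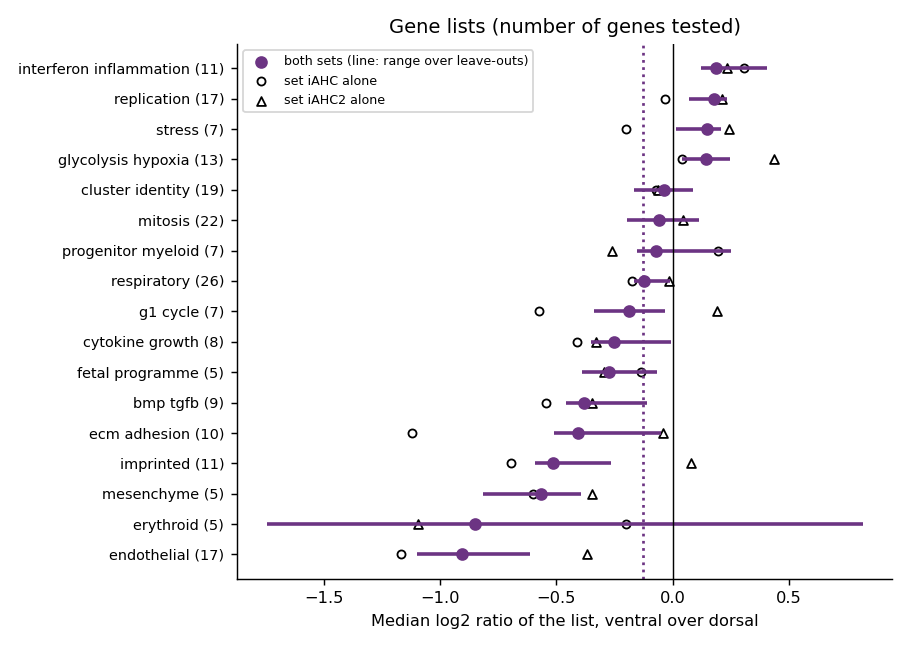
Median log2 ratio of ventral over dorsal wIAHCs at E11 for each gene list with at least 5 genes tested (number in brackets), with lines for the range when each library is left out, open circles for set iAHC, triangles for set iAHC2 and a dotted line at the median of all genes (-0.13). The endothelial list lies lowest at -0.91, and the erythroid list spans 0 when libraries are left out.

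The collection set moved more genes than the side. In the same fit 38 of 167 genes passed for the set (22.8%; edgeR, Benjamini-Hochberg adjusted p under 0.05), 22 higher and 16 lower in set iAHC2. Hbb-bh1 and Hbb-y, the embryonic haemoglobins, were higher in set iAHC2 by log2 ratios of 7.21 and 5.97 (adjusted p = 4.4e-04 and 5.8e-04). The 3 libraries over 10% haemoglobin all belong to set iAHC2, where the median haemoglobin share was 0.334% in ventral and 0.432% in dorsal libraries, against 0.053% and 0.039% in set iAHC. Pairs of libraries of 1 set correlated at 0.702 on average within a side and at 0.683 between sides, whereas pairs of different sets were at 0.582 within and between sides. Over all pairs, within and across sets, libraries of a side were at 0.650 and libraries of different sides at 0.632, a difference of 0.018 (permutation test of the sides, p = 0.20). The mean correlation between pairs was 0.677 among ventral and 0.594 among dorsal libraries, a difference of 0.083 (permutation p = 0.14). Both means pool pairs within and across sets, and the mix of these pairs differs between the sides. Only the permutation p allows for that mix. With the 500 genes of highest mean the difference between pairs of a side and of different sides was 0.017 (permutation p = 0.029). That between ventral and dorsal pairs was 0.087 (permutation p = 0.014). The kept ventral libraries were deeper by 1.02 on the log2 scale within sets. These permutations kept the sets but not the depth, and the part of depth was not tested.

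At E10 the median log2 ratio of ventral over dorsal for the endothelial list was -0.03, and 0 of 17 genes were at an unadjusted p under 0.05 in either direction, against 2.69% lower and 2.84% higher of all genes. The test of the difference between stages, E11 less E10, gave an unadjusted p under 0.05 for 3 of 17 genes (6.03% of all genes). These were Vwf, Cldn5 and Nrp1, with Benjamini-Hochberg adjusted p of 0.62, 0.80 and 0.81 by edgeR. In the narrower test the ratio of ventral over dorsal differed between stages for 0 of 260 genes (0%; edgeR, Benjamini-Hochberg adjusted; 12 at an unadjusted p under 0.05, and 0 called by DESeq2 with 20). Igf2 was at -0.73 at E11 and -0.09 at E10 in that fit (difference unadjusted p = 0.078, adjusted p = 0.63), H19 at -0.80 and -0.66 (adjusted p = 0.98) and Rn45s at -1.42 and -1.43 (adjusted p = 0.997). The E10 libraries belong to set iAHC by name.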

How the data were processed

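CEL-Seq libraries were made from single wIAHCs. Per the submitters' processing notes, reads were aligned with BWA 0.6.2-r126 to mm10. The deposited values are estimated counts: the authors counted unique molecular identifiers of length 4 per gene and corrected them for collisions, and single cells had been down-sampled to 5000 transcripts with 0.1 added to each value, which was removed here. The correction could be undone to whole identifiers in the whole-cluster table (largest deviation 3.13e-13), with 6 entries at all 256 identifiers, where counts are saturated. Spike-ins (90 entries) were left out, and values were rounded to whole transcripts. The kept libraries held 5099 to 54975 transcripts, so levels of a few transcripts are imprecise.

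Sides were compared by edgeR 4.0.16 (quasi-likelihood, TMM scaling, filterByExpr, collection set as covariate) in R 4.3.3, with DESeq2 1.42.0 and limma 3.58.1 as alternatives, and Benjamini-Hochberg adjusted p under 0.05 as threshold. The wider test took genes with a transcript in at least 12 libraries and kept the factors of the first. Permutations (100000) of sides within sets were run in Python 3.11.15 with numpy 2.4.6 and scipy 1.17.1, and the similarity measures used log2 levels per 10000 with a pseudocount of 1. Mixtures were fitted over 2000 genes by non-negative least squares. The fits were tested on simulated data.

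Named genes were those passing, filled up to 12 in each direction by lowest p, and in each list the 2 of highest level and the 2 of lowest p. Tpm1 and the endothelial genes beyond those 4 were named after their values were seen. Members and lists were chosen with earlier results of these data known. The 11 genes of the mitochondrial genome on 1 list were absent from the table used. Alternatives covered scaling, filters, depth minimum, sets, haemoglobin and leaving out each library.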

Additional observations from a re-analysis of the deposited data

Results flagged for a closer look

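Of 89 groups of 4 to 10 libraries examined, 8 held a library far from the others by Dixon's criterion, of which chance gives about 1 in 20. In the dorsal libraries of set iAHC, library 14 had 0.174% haemoglobin (others 0.0116% to 0.0439%) and library 6 had H19 at 143 per 10000 transcripts (others 23.7 to 66.7). In the dorsal libraries of set iAHC2, library 16 had 27.5% haemoglobin (others 0.206% to 5.39%) and library 8 had Rpl13a at 35.7 per 10000 (others 26.002 to 29.2). Library 2 of that group stood apart for Malat1 at 41.2 (others 3.63 to 9.64) and for Rn45s at 217.0 (others 34.8 to 87.6). In the ventral libraries of set iAHC, library 23 had Rps13 at 15.0 (others 25.0 to 26.5) and library 16 had Rpl21 at 13.4 (others 20.6 to 21.2).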

How the results depend on the processing

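The count of genes called was 0 by edgeR under most alternatives, among them other scaling methods, DESeq2, limma, 3000 or 10000 transcripts as minimum, no covariate and set iAHC2 alone. It was 12 without a filter on low counts and 8 with the wider filter and its own scaling, all with a higher ventral level, beside a median of all genes of 0.36. It was 1 in set iAHC alone (Rn45s), 1 without the libraries over 10% haemoglobin (Igf2) and 0 to 1 when each library was left out (Igf2 without dorsal library 16 of set iAHC2). With the first scaling and all libraries none of those 8 genes passed (adjusted p 0.22 to 0.92), and in 7 of them the highest level was in ventral library 17 of set iAHC. Leaving out each library in turn from the wider test gave 0 to 3 calls (Rn45s without 6 different libraries, H19 without 4), leaving out the 3 libraries over 10% haemoglobin gave 8, the 4 over 5% 7, set iAHC alone 6 and set iAHC2 alone 3, or 6 without its dorsal library 16. As stated above, calls of the wider test in subsets are a description only.

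Log2 ratios turned under no filter and under the wider filter with its own scaling, to 0.24 and 0.17 for Rpl31-ps12, 0.24 and 0.16 for Fau, 0.37 and 0.28 for Rpl13a, 0.22 and 0.15 for Rpl31, 0.33 and 0.26 for Rps27a, 0.39 and 0.32 for Rpl18, 0.37 and 0.30 for Rps10 and 0.39 and 0.29 for Rpsa. Rps10 was at 0.0075 with a minimum of 10000 transcripts and at 0.12 in set iAHC alone, and Rpl36a at -0.0087 with that minimum. Of the other values of the 24 named genes in the first test and of 12 list members in the wider test 495 kept direction and side of the threshold and 3 came to pass, and with a library left out 1037 kept both and 1 came to pass. The cause of these changes was not tested.

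The difference in depth was -0.13 over all E11 libraries, and that in genes detected was -8.74 after thinning to 3000 transcripts, -14.7 without the libraries over 10% haemoglobin and 1537 without thinning. With log2 levels fitted, the mixture gave a difference of -3.37 percentage points for endothelial cells (permutation p = 0.11, adjusted p = 0.45), -2.49 for pre-HSCs and 5 for yolk sac cells. With the 500 genes of highest mean, similarity by side was 0.017 (permutation p = 0.029). The mean correlation among ventral libraries exceeded that among dorsal ones by 0.087 (permutation p = 0.014). The part of depth in both was not tested. The wider test with the first scaling, and the settings without haemoglobin libraries for depth, genes and mixtures and for lists, and the settings over 5% haemoglobin and without dorsal library 16 in set iAHC2 alone, were added after seeing the data. No paired analysis was possible because the labels give ventral and dorsal clusters no shared replicate numbers. Depth limits the list results, since many endothelial genes had 0 transcripts in some libraries of both sides.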

Other observations

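Imprinted genes, Igf2 and H19 included, had mostly lower fitted ventral levels over both sets together, though not in set iAHC2 alone. Of 15 such genes 11 were tested, 10 of them with a ratio below 0, beside 59.0% of all genes, and Igf2 and H19 were the 2 of 11 (18.2%) at an unadjusted p under 0.05, beside 3.71% of all genes. With the scaling on all 4580 genes neither was at that p, and Gnas was the 1 of 11 that was, with a higher ventral level. The median log2 ratio of the list was -0.51, which lay 0.39 below that of all genes, and 0.36 below it when the scaling came from all 4580 genes. Both values had to be close, since a change of scaling moves all genes by nearly the same amount. By set the median was -0.70 in set iAHC, with 11 of 11 genes below 0 (64.7% of all genes), and 0.08 in set iAHC2, with 5 of 11 (47.5% of all genes). Among 11 tested interferon and inflammation genes 0 were at an unadjusted p under 0.05 with the first scaling. With the scaling on all 4580 genes 4 were (Ifitm1, Stat3, Nfkb1 and Nfkbia, all higher in ventral libraries, beside 9.98% of all genes), and their summed level was 2.56 to 36.3 per 10000 in ventral (median 22.1) and 0 to 27.8 in dorsal libraries (median 13.2). The 13 tested genes of glycolysis and hypoxia had a median log2 ratio of 0.14, with Hk1, a hexokinase, at -1.26 (edgeR's quasi-likelihood test, unadjusted p = 0.045, Benjamini-Hochberg adjusted p = 0.98). With the scaling on all 4580 genes Hk1 was at -0.73 (unadjusted p = 0.22), and Aldoa, Gapdh, Pgk1 and Ldha were the 4 of 13 at an unadjusted p under 0.05, all higher in ventral libraries.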
